A study of Mus musculus with 32 samples.

Results

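Chronic stress was compared with baseline in the amygdala of mice that had received the solvent DMSO and no label. The comparison rests on 7 libraries, 3 labelled chronic stress, DMSO and 4 labelled baseline, DMSO, chosen by their labels out of 26 amygdala libraries and 32 libraries in the series. All mice were wild type. Both groups had DMSO placed stereotaxically in the amygdala 24 h before the RNA was taken, so the injection and the time after it are part of both groups. RNA from the amygdala of both sides was alkylated, a step that serves the detection of 4-thiouridine (4sU, a uridine analogue that marks newly made RNA) and that these unlabelled libraries also went through. Further wild-type mice serve below for comparison: 5 libraries of acute stress with DMSO, and mice that received 100 mM 4sU in DMSO the same way, 5 libraries at baseline and 4 after chronic stress. The stress procedure, its length, and the age and sex of the mice are not given in the labels, and nothing states that each library came from a separate animal. The p-values below therefore measure the spread between these libraries.

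The amygdala is a group of nuclei that links sensory cues to fear, anxiety and autonomic responses. Stress raises glucocorticoid hormones, which bind the receptors Nr3c1 and Nr3c2, and the occupied receptors switch on target genes such as Fkbp5, Sgk1 and Tsc22d3. Neuropeptides such as corticotropin-releasing hormone (Crh), and immediate early genes such as Fos and Arc, are the usual readouts of stress circuits and of recent neuronal activity.

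Exon counts per library ran from 16211186 to 17596612, and 16096 genes passed the filter on low counts. The share of reads in 3′ UTR intervals was 18.5% ± 0.26 (SD, n = 4) at baseline and 18.7% ± 0.28 (SD, n = 3) after chronic stress. These shares overlapped (exact permutation test, two-sided, p = 0.34). The smallest p that 4 against 3 libraries allow is 0.057, so this test cannot decide whether the groups were alike. The T-to-C conversion rate was 0.0275% ± 0.0030 (SD, n = 4) and 0.0250% ± 0.0014 (SD, n = 3). The same exact test gave p = 0.29, with the same limit. GABAergic and glutamatergic neuron markers and all 20 markers of amygdala nuclei were detected. Markers of the neighbouring striatum summed to 3498 to 7563 CPM (a gene's count scaled to library size, the unit of every level below), and those of choroid plexus and ependyma to 4534 to 7803 CPM. The 4 haemoglobin genes on the list of blood cells had 0 counts in all 7 libraries. The ribosomal protein gene Rpl26 and the oxidative phosphorylation gene Ndufs5 had 0 counts in all 7 as well. The 0 counts of haemoglobin therefore cannot tell whether blood was present.

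Chronic library 1 stood apart from the other 2 chronic libraries. Slc17a7, the vesicular glutamate transporter of cortical-type neurons, was at 47.9 CPM there, against 587 and 487 CPM in chronic libraries 2 and 3. At baseline it was at 329, 280, 485 and 285 CPM. The leading principal component of the 7 libraries held 44.8% of the variance. On it the genes lowest in chronic library 1 included the glutamatergic factors Neurod6 and Neurod2, and those highest included the striatal genes Tac1 and Scn4b. Chronic library 1 scored 17.5 and baseline libraries scored from -6.37 to 9.98. Chronic libraries 2 and 3 lay beyond baseline at the other end, at -16.4 and -11.7. Baseline library 4 held the highest levels of glucocorticoid-responsive, interferon-stimulated and striatal genes among the baseline libraries. Within groups the biological coefficient of variation was 0.087 at baseline and 0.12 after chronic stress. In bulk tissue, fewer cells of a type and less RNA per cell cannot be told apart.

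No gene differed between chronic stress and baseline at an adjusted p under 0.05 by edgeR's quasi-likelihood test, 0 of 16096 genes (0%), and the lowest adjusted p was 0.30. At an unadjusted p under 0.05, 396 genes were higher (2.46%) and 517 were lower (3.21%). DESeq2 called 4 genes higher (0.0249%) and 7 lower (0.0435%), and limma voom with quality weights called 2 higher, Kcns3 and H2-Q4. The 3 chronic libraries lay above all 4 baseline libraries in 610 genes (3.79%) and below all of them in 653 (4.06%). The median log2 fold change over all genes was 0.01, and 52.4% of all genes had a positive fold change. Counts on gene lists below are set beside these shares for scale only. The lists were chosen with earlier results of these data known, and list members can move together within a library. The counts therefore describe the lists and do not test them. The precision was high for most genes: the 95% interval of the log2 fold change lay within a 1.5-fold difference either way for 11681 genes (72.6%) and within a 2-fold difference for 14090 (87.5%). With chronic library 1 and baseline library 4 left out, a choice added with the results in view, edgeR again called 0 genes, with 531 higher (3.27%) and 579 lower (3.57%) at an unadjusted p under 0.05.

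**Figure D1:**
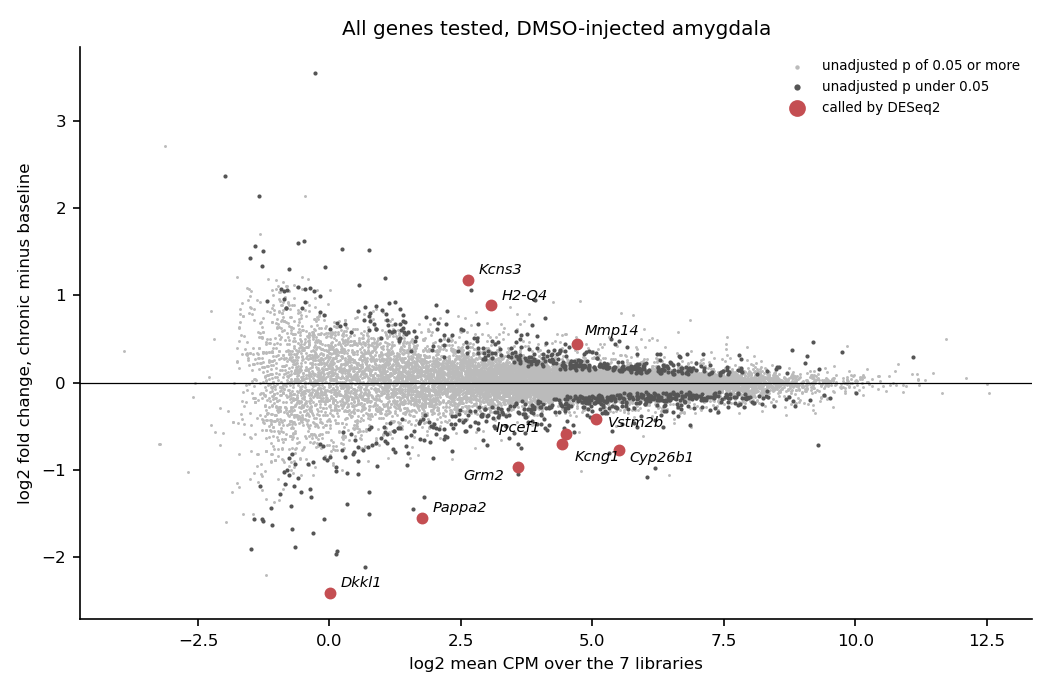
Log2 fold change of each tested gene (chronic minus baseline, y axis) against its log2 mean CPM over the 7 DMSO libraries (x axis). Dark points have an unadjusted p under 0.05, and the red points are 10 of the 11 genes that DESeq2 called, 3 above and 7 below 0; edgeR called none.

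A set of 24 genes, 12 in each direction, was chosen for separate groups and the smallest p in these same libraries, leaving out predicted genes, RIKEN symbols and small RNAs, so their p-values describe them and do not test them anew; 23 of them are described here. Kcns3 had the smallest p. It encodes Kv9.3, a modifier subunit that assembles with Kv2 potassium channels, and lies on chromosome 12 (mm10, 11090202 to 11150842, minus strand). Kcns3 was at 3.76, 3.05, 6.07 and 3.27 CPM in baseline libraries 1 to 4 and at 10.8, 8.77 and 7.74 CPM in chronic libraries 1 to 3. All 3 chronic values were above the highest baseline value, that of library 3. The log2 fold change was 1.17 ± 0.20 (SE, edgeR adjusted p = 0.30), with a 95% interval from 0.74 to 1.60, and DESeq2 gave an adjusted p of 0.00068. Without baseline library 3, edgeR called Kcns3 as well (log2 fold change 1.44).

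H2-Q4, a class I histocompatibility gene on chromosome 17 (mm10, 35379617 to 35384674, plus strand), was at 5.75, 5.54, 6.07 and 7.26 CPM at baseline and at 8.83, 13.4 and 11.9 CPM after chronic stress. The groups did not overlap, and baseline library 4 was the highest of its group (log2 fold change 0.89 ± 0.18, SE, edgeR adjusted p = 0.40, DESeq2 adjusted p = 0.018). H2-Q4 has near-identical neighbours in the same locus, and how the counting treated reads shared between them is not given in the sources used here. Mmp14, a membrane-anchored protease of the extracellular matrix, was at 24.9, 21.6, 22.4 and 21.3 CPM at baseline and at 30.6, 31.1 and 30.5 CPM after chronic stress. The chronic values of Mmp14 lay close together and above every baseline value (0.44 ± 0.10, edgeR adjusted p = 0.50, DESeq2 adjusted p = 0.047).

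A further 8 of the 12 genes higher after chronic stress had log2 fold changes from 0.27 to 0.54. They were the ribosomal protein genes Rps13 (0.33) and Rpl28 (0.32), the tyrosine phosphatase gene Ubash3b (0.34), the phospholipase C gene Plch1 (0.54), the vesicle SNARE gene Vamp1 (0.27), the homeobox gene Homez (0.29), the zinc finger gene Zbtb37 (0.51) and the FERM and PDZ domain gene Frmpd1 (0.50). Ribosomal protein genes have many processed copies with which they may share reads. Vamp1, which mediates fast transmitter release, was at 220, 218, 212 and 186 CPM at baseline and at 260, 264 and 229 CPM after chronic stress. Plch1 was at 12.3, 13, 15.2 and 11.4 CPM at baseline and at 20.9, 19.0 and 16.7 CPM after chronic stress. In both genes the lowest chronic value, that of library 3, was above the highest baseline value. Adjusted p-values of all 12 genes lay between 0.30 and 0.55 by edgeR.

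**Figure D2:**
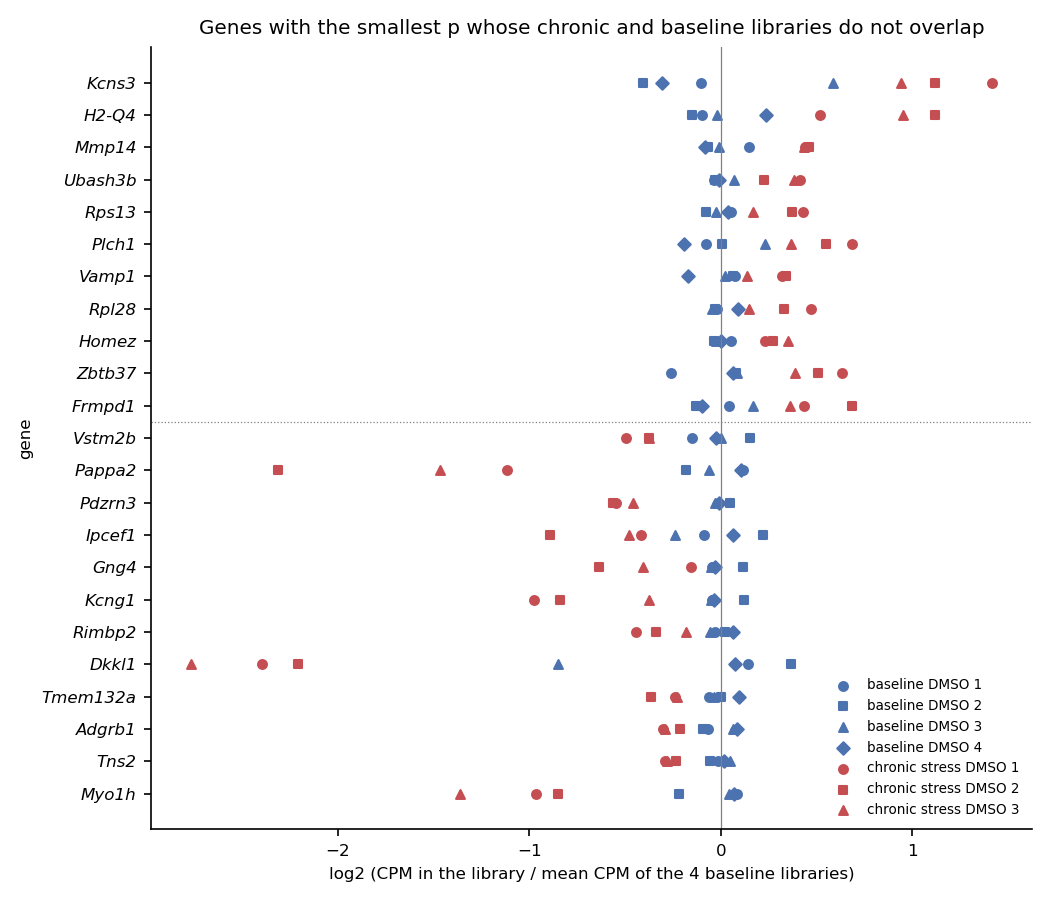
Level of 11 higher (top) and 12 lower (bottom) genes in each DMSO library, as log2 of the CPM over the mean CPM of the 4 baseline libraries; blue points are baseline libraries, red points chronic stress libraries. The groups are separate in every row because separation was part of how the genes were chosen; Dkkl1, Pappa2 and Kcns3 have the largest log2 fold changes.

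Of the 12 genes below baseline, Pappa2 and Dkkl1 had the largest differences. Pappa2, a protease that cleaves binding proteins of insulin-like growth factor and a member of the list of amygdala markers, lies on chromosome 1 (mm10, 158711735 to 158958175, minus strand). It was at 5.12, 4.16, 4.52 and 5.08 CPM at baseline and at 2.18, 0.950 and 1.71 CPM after chronic stress. Every chronic value was below every baseline value, with library 2 the lowest (log2 fold change -1.55 ± 0.32, SE, edgeR adjusted p = 0.40, DESeq2 adjusted p = 0.0052). Dkkl1, a secreted relative of the Wnt antagonists of the dickkopf family, was at 1.71, 2.00, 0.859 and 1.63 CPM at baseline and at 0.294, 0.335 and 0.228 CPM after chronic stress. Its groups were separate at low levels (-2.41 ± 0.56, edgeR adjusted p = 0.50, DESeq2 adjusted p = 0.040). Vstm2b, an immunoglobulin-domain membrane protein on chromosome 7 (mm10, 40899278 to 40929968, plus strand), was at 33.7, 41.6, 37.4 and 36.8 CPM at baseline and at 26.5, 28.8 and 28.8 CPM after chronic stress. Its difference was smaller and its spread narrow (-0.41 ± 0.08, edgeR adjusted p = 0.39, DESeq2 adjusted p = 0.011).

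Kcng1 encodes Kv6.1, like Kcns3 a modifier of Kv2 channels, and it was lower where Kcns3 was higher. It was at 24.9, 28.0, 24.8 and 25.1 CPM at baseline and at 13.1, 14.4 and 19.9 CPM after chronic stress (-0.70 ± 0.16, edgeR adjusted p = 0.50, DESeq2 adjusted p = 0.025). Ipcef1, which binds cytohesin exchange factors of membrane traffic, was at 24.9, 30.8, 22.4 and 27.7 CPM at baseline and at 19.8, 14.2 and 19.0 CPM after chronic stress (-0.58 ± 0.13, edgeR adjusted p = 0.50, DESeq2 adjusted p = 0.040). In both genes the groups were separate, with chronic library 3 nearest to baseline for Kcng1 and library 1 for Ipcef1. The other 7 genes were Pdzrn3 (-0.52), a ubiquitin ligase gene, Gng4 (-0.39), a G protein gamma subunit gene, Rimbp2 (-0.32), an active zone scaffold gene, Tmem132a (-0.28), the adhesion receptor gene Adgrb1 (-0.27), the tensin gene Tns2 (-0.27) and the myosin gene Myo1h (-1.04). Pdzrn3 was at 10.1, 10.6, 10.02 and 10.2 CPM at baseline and at 7.01, 6.93 and 7.46 CPM after chronic stress with little spread in either group. Adjusted p-values of the 12 lay between 0.39 and 0.50 by edgeR.

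DESeq2 called a further pair of lower genes, Cyp26b1 and Grm2. Cyp26b1, an enzyme that breaks down retinoic acid, was at 49.7, 74.8, 46.4 and 50.2 CPM at baseline and at 26.7, 30.5 and 40.1 CPM after chronic stress (-0.77 ± 0.20, edgeR adjusted p = 0.55, DESeq2 adjusted p = 0.038). Grm2, the presynaptic metabotropic glutamate receptor mGluR2, was at 13, 19.9, 13.1 and 14.7 CPM at baseline and at 6.36, 4.75 and 12.1 CPM after chronic stress (-0.97 ± 0.25, edgeR adjusted p = 0.55, DESeq2 adjusted p = 0.039). In both genes chronic library 3 was the one nearest to the baseline values and baseline library 2 the highest. Without chronic library 3, edgeR called Grm2 (log2 fold change -1.44).

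The mice with 4sU in the same solvent also give values for these 24 genes. Their libraries shared the estimate of the spread behind the p-values by which the genes were chosen. Genes with a small spread are more easily called in both sets of mice. The shares of all genes are therefore not a like comparator, and the counts below are not an independent test. All 12 genes that were lower with DMSO were called lower with 4sU by edgeR, where 29.6% of all genes were called lower. Of the 12 genes that were higher with DMSO, 6 were called higher with 4sU, where 26.9% of all genes were, and 10 had a positive fold change. H2-Q4 was called in the opposite direction with 4sU (-0.46, adjusted p = 0.027). Kcns3 (0.64, adjusted p = 0.0063) and Plch1 (0.84, adjusted p = 8.2e-06) were higher in both sets of mice, and Pappa2 (-1.43, adjusted p = 0.00014) and Kcng1 (-1.36, adjusted p = 3.1e-07) were lower in both. In the 4sU libraries the 3′ UTR share was 16.4% to 17.2% at baseline and 18.7% to 20.3% after chronic stress, without overlap, and its part in the 4sU values was not tested.

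**Figure D3:**
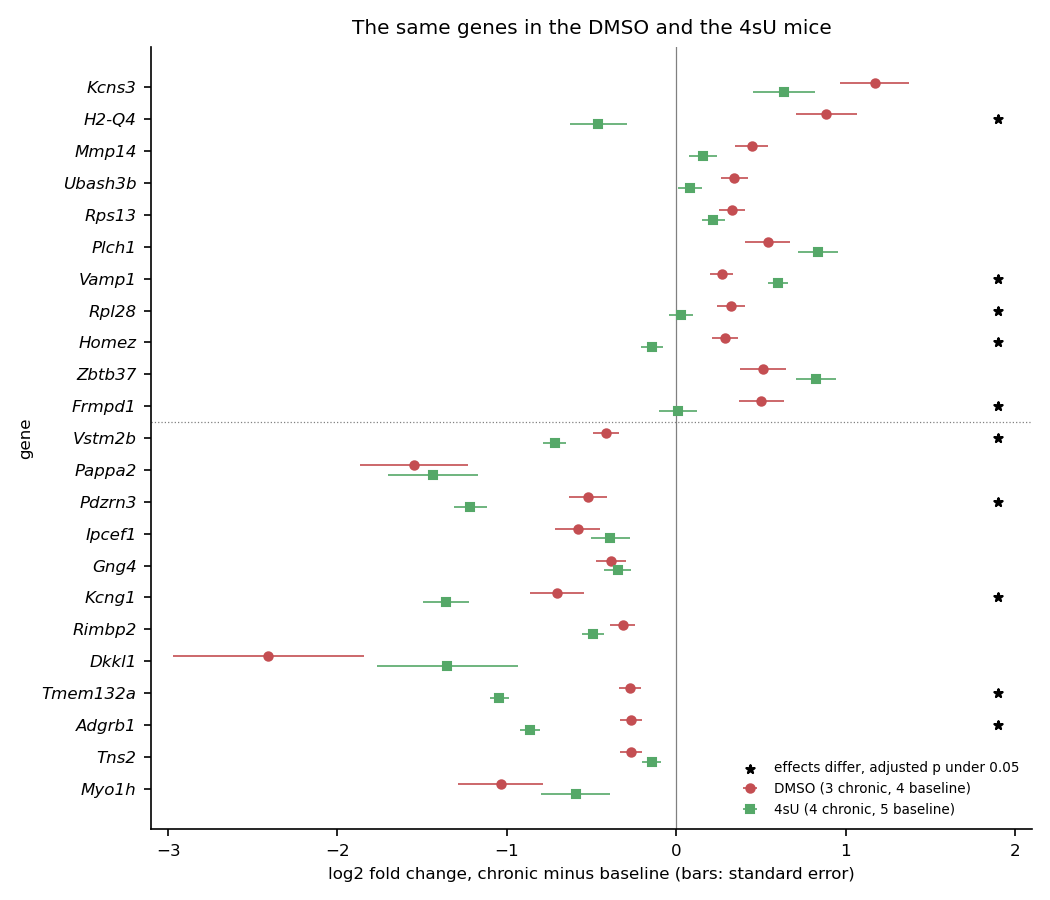
Log2 fold change of chronic stress against baseline (x axis) for 23 of the 24 genes in DMSO mice (red circles) and in 4sU mice (green squares), with standard errors as bars. Stars mark the 10 genes whose fold change differed between the 2 sets of mice at an adjusted p under 0.05; H2-Q4 lies on opposite sides of 0.

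Targets of the glucocorticoid receptor lay on both sides of baseline after chronic stress in DMSO mice. Of 34 glucocorticoid-responsive genes, 0 passed at an unadjusted p under 0.05, 15 were above baseline and 19 below, and their median log2 fold change was -0.03. For 22 of the 34 the 95% interval lay within a 1.5-fold difference. The median depended on baseline library 4: without it 25 of 34 genes were above baseline, 4 of them at an unadjusted p under 0.05, and the median was 0.16. Acute stress in DMSO mice is set beside this against the same 4 baseline libraries, which both comparisons share. There, in the fit of all amygdala libraries, 22 of the 34 genes were called higher, where 1.97% of all genes were, and the median was 0.73.

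On a common scale of all amygdala libraries, Fkbp5, a chaperone that dampens the glucocorticoid receptor, was at 40.2, 38.7, 61.2 and 82.7 CPM at baseline and at 46.1, 57.0 and 53.1 CPM after chronic stress. After acute stress it was at 92.9, 96.3, 114, 102 and 107 CPM. Every acute value was above every baseline and chronic value, while baseline and chronic values overlapped. The chronic against baseline log2 fold change was -0.09 ± 0.22 (SE, adjusted p = 0.97) by edgeR in the fit of the baseline and chronic libraries. The acute one was 0.88 ± 0.15 (adjusted p = 0.0021) by edgeR in the fit of all amygdala libraries. The direct test of chronic against acute in that fit gave -0.98 ± 0.17 (adjusted p = 0.0027). Values of Sgk1 and Tsc22d3 below come from the same fits. The sign of the chronic difference turned positive without baseline library 4 (0.16).

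Sgk1, a kinase that regulates ion transport, was at 83.9, 69.7, 134 and 289 CPM at baseline, at 388, 509, 653, 507 and 404 CPM after acute stress and at 165, 164 and 127 CPM after chronic stress. The chronic values lay inside the baseline range, which baseline library 4 widened, and below every acute value. Chronic against baseline gave 0.08 ± 0.45 (adjusted p = 0.99), acute against baseline 1.77 ± 0.32 (adjusted p = 0.0030) and chronic against acute -1.70 ± 0.36 (adjusted p = 0.013). Tsc22d3, the leucine zipper protein GILZ, was at 69.9, 68.0, 82.1 and 94.6 CPM at baseline, at 131, 252, 196, 166 and 147 CPM after acute stress and at 78.2, 84.3 and 66.3 CPM after chronic stress. Again the acute libraries stood alone (chronic against acute -1.23 ± 0.16, adjusted p = 0.00016), and the chronic and baseline values overlapped (-0.04 ± 0.13, adjusted p = 0.98).

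Of the 34 genes, 20 were lower after chronic than after acute stress and 0 were higher, where 1.07% of all genes were lower and 0.711% higher. This count was 9 without chronic library 3, 13 without chronic library 2 and 17 to 23 when any other library was left out. Acute library 2 had a 3′ UTR share of 23.9%, above the 18.5% to 19.0% of the other 4 acute libraries, and without it the count was 23. The spread among acute libraries was wide (biological coefficient of variation 0.26). Of the 16 corticosteroid receptors, co-chaperones and cofactors, 0 passed at an unadjusted p under 0.05 in chronic against baseline mice, and for 15 the 95% interval lay within a 1.5-fold difference. Without chronic library 1, 2 were higher and 1 lower by that measure, and without baseline library 3, 1 was higher and 1 lower. The gene with the wider interval was Nr3c2, the mineralocorticoid receptor, at 73.3, 51.3, 75.6 and 55.7 CPM at baseline and at 58.4, 110 and 101 CPM after chronic stress. Its groups overlapped through chronic library 1 (0.49 ± 0.24, adjusted p = 0.88). The glucocorticoid receptor Nr3c1 was at 94.9 to 117 CPM at baseline and at 90.0 to 109 CPM after chronic stress (-0.14 ± 0.07, adjusted p = 0.88).

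**Figure D4:**
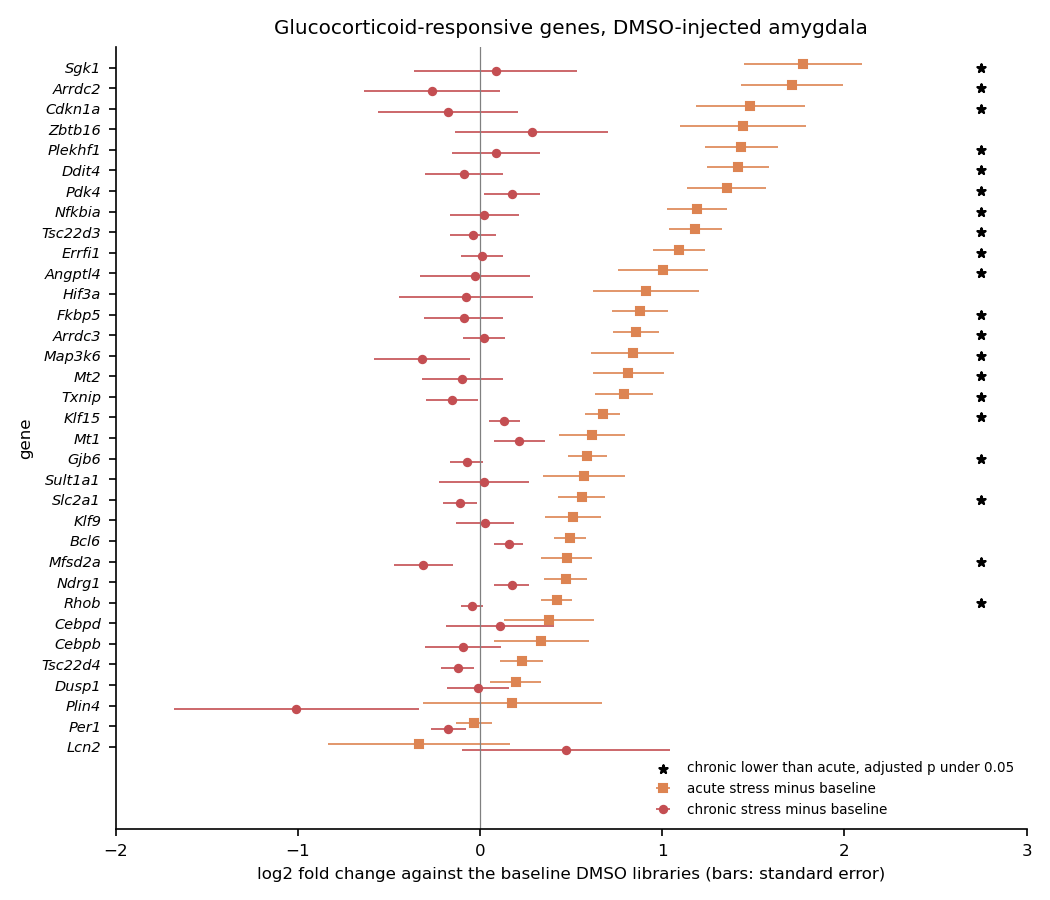
Log2 fold changes of the 34 glucocorticoid-responsive genes after acute (orange squares, fit of all amygdala libraries) and chronic stress (red circles, fit of the baseline and chronic libraries), both against the same baseline DMSO libraries, with standard errors as bars. Stars mark the 20 genes that were lower after chronic than after acute stress at an adjusted p under 0.05.

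Immediate early genes, induced within minutes by neuronal firing, gave 1 higher (Atf3) and 2 lower (Fosb, Egr4) genes of 30 at an unadjusted p under 0.05, with a median log2 fold change of -0.05. By that measure 2.46% of all genes were higher and 3.21% lower. Fos was at 10.6, 12.3, 6.64 and 8.96 CPM at baseline and at 6.95, 11.2 and 11.7 CPM after chronic stress, so the chronic values lay inside the baseline range (0.04 ± 0.38). Arc (0.03 ± 0.40) and Npas4 (0.02 ± 0.34) were as close to 0, with standard errors that leave a wide interval, and the sign of Fos, Arc and Npas4 turned when some single libraries were left out. The count of lower genes on the list was 0 without chronic library 1 or 2, 1 without baseline library 2 or 4 and 3 without baseline library 3, and that of higher genes ran from 0 to 3. Egr1, a zinc finger factor, was at 125, 130, 115 and 179 CPM at baseline and at 103, 107 and 111 CPM after chronic stress. Its chronic values were all below baseline, where library 4 was the highest (-0.35 ± 0.28, adjusted p = 0.93). Egr4 was lower in all 3 chronic libraries too (-0.48 ± 0.21), as was Fosb (-0.36 ± 0.16). The interval lay within a 1.5-fold difference for only 11 of the 30 genes, so differences of that size were not resolved for most of them. Bdnf, a growth factor of glutamatergic neurons, was at 3.59 CPM in chronic library 1 and at 24.1 and 16.6 CPM in libraries 2 and 3, against 7.32 to 12.7 CPM at baseline (0.61 ± 0.55). The glutamatergic markers of library 1 were low as well, and their part in the value of Bdnf was not tested.

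Of 34 neuropeptide and neuropeptide receptor genes, 30 were below baseline and 4 above, where 52.4% of all genes were above, with a median log2 fold change of -0.15 against 0.01 over all genes. At an unadjusted p under 0.05, 0 were higher and 4 were lower (3.21% of all genes), namely Npsr1, Sstr2, Cckbr and Cartpt. The mean log2 (CPM + 1) of the list was 4.06, 4.23, 4.01 and 4.15 at baseline and 3.98, 3.73 and 3.95 after chronic stress, lower in every chronic library. The median moved to -0.02 without chronic library 2 and to -0.29 without chronic library 1, and the count of lower genes to 2 without baseline library 2 and to 7 without chronic library 1. Npsr1, the receptor of neuropeptide S, was at 3.02, 5.93, 4.18 and 5.57 CPM at baseline and at 1.24, 1.06 and 3.36 CPM after chronic stress (-1.31 ± 0.37, adjusted p = 0.63). Chronic library 3 overlapped the lowest baseline value. The somatostatin receptor gene Sstr2 was at 14.9, 16.6, 13.6 and 12.5 CPM at baseline and at 5.48, 8.44 and 12.6 CPM after chronic stress (-0.70 ± 0.20, adjusted p = 0.63), again with library 3 inside the baseline range. Cckbr, a cholecystokinin receptor gene, was below baseline in all 3 libraries (-0.39 ± 0.17), and Cartpt was not, since chronic library 1 was at 14.7 CPM (-0.75 ± 0.33). Crh was at 8.94, 9.37, 6.98 and 10.2 CPM at baseline and at 10.4, 4.81 and 8.14 CPM after chronic stress (-0.19 ± 0.22, adjusted p = 0.95), with overlapping groups.

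Markers of amygdala nuclei were lower on balance, 15 of 20 below and 5 above baseline (52.4% of all genes were above), with a median of -0.20. Pappa2, Npsr1, Tfap2d and Lmo3 were lower at an unadjusted p under 0.05, as were 3.21% of all genes, and 0 were higher. The mean log2 (CPM + 1) of the list was 5.01, 5.10, 5.04 and 5.13 at baseline and 4.71, 4.73 and 4.95 after chronic stress, without overlap. Tfap2d, a transcription factor gene, was at 1.25, 2.00, 1.66 and 2.54 CPM at baseline and at 0.530, 0.726 and 1.42 CPM after chronic stress (-1.05 ± 0.44, adjusted p = 0.83). Lmo3, a LIM-domain gene abundant in the basolateral amygdala, was at 168, 190, 177 and 203 CPM at baseline and at 160, 122 and 157 CPM after chronic stress (-0.34 ± 0.15, adjusted p = 0.86). Lmo3 separated the groups and Tfap2d did not. The median of the list was -0.02 without chronic library 2, -0.11 without baseline library 4 and -0.30 without chronic library 1. Its count of lower genes was 2 without baseline library 2, baseline library 4 or chronic library 2. Of 23 hypothalamic and thalamic markers 2 were higher at an unadjusted p under 0.05 (2.46% of all genes), Lhx1 and Tcf7l2. The homeobox gene Lhx1 was at 0.683, 1.27, 1.20 and 0.545 CPM at baseline and at 2.53, 2.91 and 2.62 CPM after chronic stress. Its groups were separate (1.52 ± 0.40, adjusted p = 0.55). Pmch, which encodes the hypothalamic peptide melanin-concentrating hormone, reached 3.12 CPM in chronic library 1 and at most 0.665 CPM in the other 6 libraries (2.13 ± 1.65, adjusted p = 0.93). Whether the tissue taken differed between the groups was not tested.

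Levels of neuron class markers overlapped between the groups. Of 18 glutamatergic markers 9 were above and 9 below baseline, none at an unadjusted p under 0.05, and the mean log2 level of the list was 4.27 in chronic library 1 against 5.17 to 5.61 in the other 6 libraries. All 20 markers of striatal spiny neurons were below baseline, from -0.46 (Lrrc10b) to -0.08 (Foxp1), but none passed at an unadjusted p under 0.05; these 2 genes were chosen after their values were seen. Their mean log2 level was 7.22, 7.18, 7.16 and 7.84 at baseline and 7.60, 6.72 and 6.83 after chronic stress. Baseline library 4 and chronic library 1 were the highest of all, so the groups overlapped, and the median of -0.28 moved to -0.09 without baseline library 4, to -0.13 without chronic library 2, to -0.15 without chronic library 3 and to -0.65 without chronic library 1. Of 18 GABAergic markers only Pvalb passed at an unadjusted p under 0.05. Pvalb, the calcium-binding protein of fast-spiking interneurons, was at 46.2, 44.6, 44.5 and 43.3 CPM at baseline and at 60.8, 62.6 and 53.8 CPM after chronic stress (0.40 ± 0.11, adjusted p = 0.55). All chronic values of Pvalb were above baseline, and the gene was also higher in 4sU mice (1.74, adjusted p = 1.9e-10), where 26.9% of all genes were called higher. The size of its effect differed between the 2 sets of mice (DMSO minus 4sU -1.34, adjusted p under 0.05 by edgeR's interaction test).

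Among receptors, the glutamate list leaned lower. Of 34 glutamate receptor and postsynaptic genes, 7 were lower and 0 higher at an unadjusted p under 0.05, where 3.21% of all genes were lower, and 9 were below baseline in all 3 chronic libraries, where 4.06% of all genes were. The 7 were the metabotropic receptors Grm2 and Grm8, the NMDA receptor subunits Grin1 and Grin2c, the kainate receptor subunits Grik3 and Grik5, and the adhesion molecule Nlgn3. Grin1, the obligatory NMDA receptor subunit, was at 275, 271, 307 and 299 CPM at baseline and at 250, 234 and 251 CPM after chronic stress (-0.23 ± 0.07, adjusted p = 0.74). Grm8 was at 19.3, 20.7, 18.8 and 22.9 CPM at baseline and at 17.7, 10.8 and 13.4 CPM after chronic stress (-0.54 ± 0.15, adjusted p = 0.63). Both were separate between groups, Grin1 by a small and even step and Grm8 with a wide spread among chronic libraries. The mean log2 (CPM + 1) of the list was 6.85, 6.83, 6.91 and 6.83 at baseline and 6.70, 6.72 and 6.81 after chronic stress. The median fold change was -0.08, and the count of lower genes was 3 without chronic library 2, 4 without baseline library 3 and 6 or 7 when any other library was left out. For 27 of the 34 genes the interval lay within a 1.5-fold difference. Of 14 GABA-A receptor subunits, Gabra3 (-0.27 ± 0.08) and Gabre (-0.68 ± 0.25) were lower in all 3 chronic libraries (4.06% of all genes). Of 25 monoamine genes 0 were higher and 3 were lower at an unadjusted p under 0.05 (3.21% of all genes), among them the receptors Adra2a (-0.41 ± 0.15) and Htr5a (-0.25 ± 0.10). Of 27 genes of vesicle release, Vamp1 and Cplx1 (0.23 ± 0.07) were higher (2.46% of all genes) and the neurexin gene Nrxn2 (-0.17 ± 0.06) was lower (3.21% of all genes) by the same measure.

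Genes of reactive glia and antigen presentation leaned the other way, but the groups overlapped in the mean level of both lists. Of 29 reactive glia and injury genes 26 were above baseline (52.4% of all genes), with a median log2 fold change of 0.33, and 3 were higher at an unadjusted p under 0.05 (2.46% of all genes), C3, Lgals3 and Spp1. The complement gene C3 was at 2.68, 3.82, 4.18 and 7.02 CPM at baseline and at 5.65, 13.4 and 8.48 CPM after chronic stress (1.06 ± 0.42, adjusted p = 0.82). Lgals3, the lectin galectin-3 of activated microglia, was at 2.62, 2.33, 2.35 and 3.75 CPM at baseline and at 2.77, 6.82 and 4.27 CPM after chronic stress (0.75 ± 0.35, adjusted p = 0.88). In both genes baseline library 4 overlapped chronic library 1, and chronic library 2 was the highest. Gfap, the astrocyte filament protein that marks reactive astrocytes, was at 713, 616, 825 and 1034 CPM at baseline and at 1065, 1182 and 953 CPM after chronic stress (0.42 ± 0.30, adjusted p = 0.93), overlapping through baseline library 4. Without baseline library 4, 13 of 29 genes were higher at an unadjusted p under 0.05, where 470 of all 16070 genes were, and the median was 0.47. Without chronic library 2 there were 0 and the median was 0.12. There were also 0 without baseline library 1 or 2, 1 without baseline library 3 and 2 without chronic library 3. With baseline library 4 and chronic library 1 both left out, 15 of 30 tested genes passed by the same measure, where 3.27% of all genes were higher. On this list these were the highest baseline and the lowest chronic library, at a mean log2 (CPM + 1) of 4.36 and 3.94. Leaving them out parts the groups by choice, so this count is not a test. The astrocyte list (median -0.03, 0 of 20 at an unadjusted p under 0.05) and the microglia list (median 0.03, Cx3cr1 higher and Ptprc lower of 24) had medians near 0 over all 7 libraries. The microglia median depended on single libraries: it was 0.14 without chronic library 3 and 0.12 without baseline library 4, each with 21 of 24 genes above baseline, and -0.09 without chronic library 1, with 5 above and 4 lower at an unadjusted p under 0.05.

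Of 20 genes of class I antigen presentation, 17 were above baseline (median 0.25; 52.4% of all genes were above), and H2-Q4, H2-K1, Tap2 and B2m were higher at an unadjusted p under 0.05, as were 2.46% of all genes. The peptide transporter gene Tap2 was at 10.3, 10.3, 10.8 and 12.2 CPM at baseline and at 14.7, 13.9 and 14.7 CPM after chronic stress (0.40 ± 0.17, adjusted p = 0.83). H2-K1, a classical class I gene, was at 34.0, 33.6, 34.5 and 46.8 CPM at baseline and at 51.1, 54.7 and 45.4 CPM after chronic stress (0.44 ± 0.14, adjusted p = 0.74). Tap2 separated the groups, while baseline library 4 overlapped chronic library 3 for H2-K1. The mean log2 (CPM + 1) of the list was 2.73, 2.85, 2.78 and 3.09 at baseline and 2.98, 3.25 and 3.01 after chronic stress, overlapping through baseline library 4. The median was 0.13 without chronic library 2 and 0.42 without baseline library 4, and the count of higher genes was 2 without baseline library 2 and 8 without baseline library 4. Of 34 interferon-stimulated genes, Ifi27 (0.50 ± 0.15), Xaf1 (0.46 ± 0.16), Bst2 (0.87 ± 0.38) and Ifitm3 (0.45 ± 0.21) were higher at an unadjusted p under 0.05 (2.46% of all genes). On that list 0 were lower, and the median was 0.05. Without baseline library 4, 9 were higher and the median was 0.27; without baseline library 1, 2 or 3 or chronic library 2, 2 were higher and the median was at most 0.04.

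All 20 markers of choroid plexus and ependyma were above baseline, by 0.11 to 0.54, and none passed at an unadjusted p under 0.05. Ttr, the thyroxine carrier that the choroid plexus secretes, was at 2882, 2834, 3114 and 2630 CPM at baseline and at 3241, 4968 and 3936 CPM after chronic stress (0.50 ± 0.47, adjusted p = 0.95). Ttr separated the groups narrowly, through chronic library 1. Summed over the list, chronic libraries were at 5526, 7803 and 6585 CPM and baseline libraries at 4534 to 5629 CPM. Whether the amount of plexus in the tissue differed was not tested. Markers of meninges (median -0.01, 0 of 27) and of vessel cells (median -0.06, Vwf and Cspg4 lower of 26) were close to 0. The count of lower vessel genes, set against 3.21% of all genes, was 0 without baseline library 1, baseline library 3 or chronic library 2, 1 without baseline library 4, chronic library 1 or chronic library 3, and 3 without baseline library 2.

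**Figure D5:**
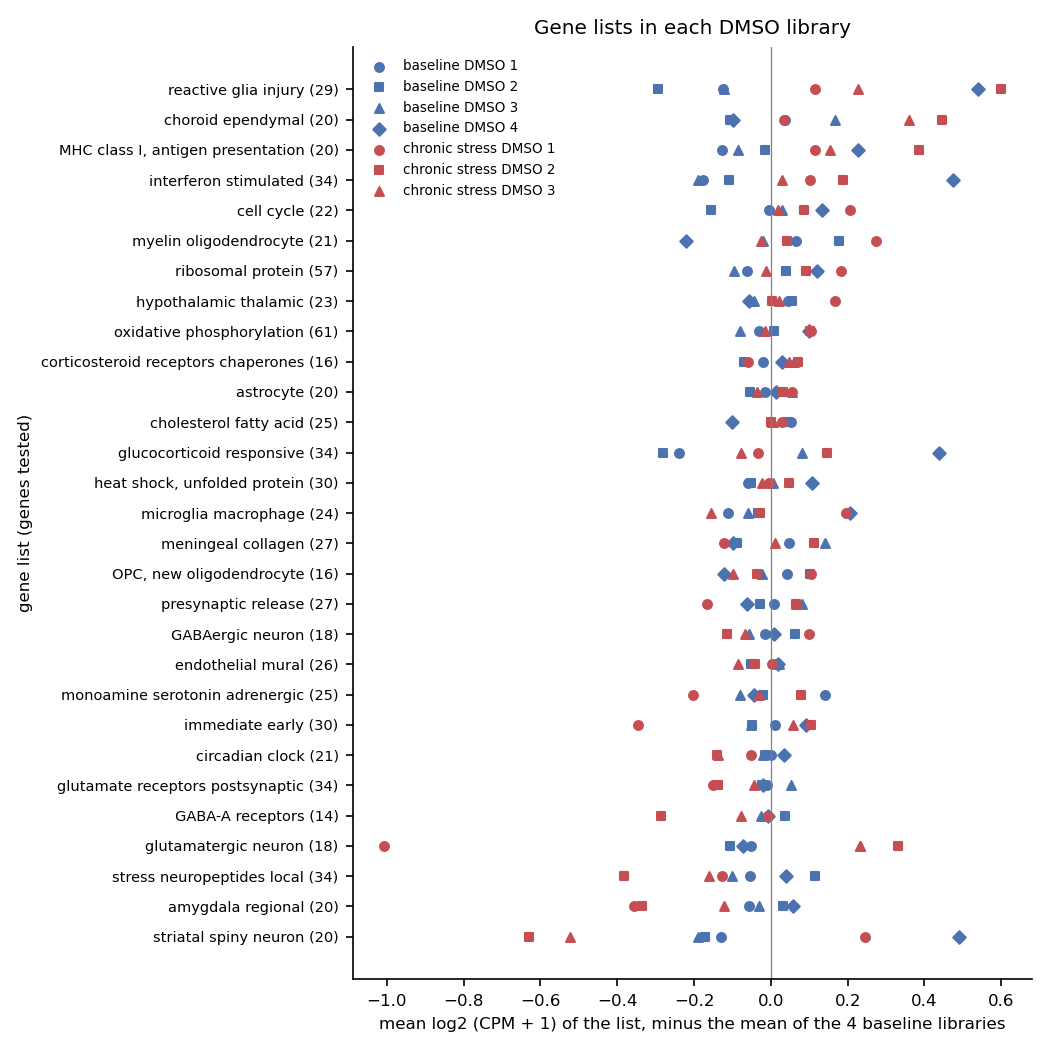
Mean log2 (CPM + 1) of each gene list in each DMSO library, minus the mean of the 4 baseline libraries (x axis); blue points are baseline libraries, red points chronic stress libraries, and the number of genes tested is in brackets. The neuropeptide, amygdala, glutamate receptor and clock lists lie lower in all 3 chronic libraries than in any baseline library, baseline library 4 overlaps the chronic libraries for reactive glia, and chronic library 1 lies far below the others for glutamatergic markers.

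Of 21 clock genes 15 were below and 6 above baseline (52.4% of all genes were above), with a median of -0.12, and the repressors Nr1d1, Per2 and Per3 and the output factor Dbp were lower at an unadjusted p under 0.05, as were 3.21% of all genes. Dbp was at 96.8, 99.7, 87.0 and 87.1 CPM at baseline and at 81.9, 55.2 and 58.7 CPM after chronic stress (-0.51 ± 0.19, adjusted p = 0.80). Per2 was at 54.5, 51.8, 64.4 and 69.5 CPM at baseline and at 46.4, 48.7 and 52.6 CPM after chronic stress (-0.29 ± 0.11, adjusted p = 0.81). Dbp was separate between the groups and Per2 overlapped through chronic library 3. The mean log2 (CPM + 1) of the list was 6.02 to 6.07 at baseline and 5.90 to 5.99 after chronic stress. The count of lower genes was 1 without chronic library 2, 2 without baseline library 3, baseline library 4 or chronic library 3 and 6 without chronic library 1. The hour at which tissue was taken is not in the labels. Dbp had a like value in 4sU mice (-0.50, adjusted p = 0.021), whereas Nr1d1 was much lower there (-1.10, against -0.20 ± 0.07 with DMSO).

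Genes of oxidative phosphorylation and of the ribosome had small positive medians. Of 61 oxidative phosphorylation genes 55 were above baseline (52.4% of all genes) with a median of 0.06. At an unadjusted p under 0.05, 7 were higher and 1 lower, where 2.46% of all genes were higher and 3.21% lower. The cytochrome oxidase subunit gene Cox6b1 was at 114, 122, 109 and 125 CPM at baseline and at 145, 137 and 130 CPM after chronic stress (0.22 ± 0.07, adjusted p = 0.67). Of 57 ribosomal protein genes 51 were above baseline with a median of 0.07. By the same measure, and beside the same shares of all genes, 6 were higher, including Rpl22 (0.16 ± 0.06), and 0 lower. Without chronic library 1 the ribosomal median was 0.02 in place of 0.07, with 36 of 58 genes above baseline, and the oxidative phosphorylation median was 0.04 without chronic library 1, chronic library 2 or baseline library 3. The counts of higher genes shifted with single libraries: the oxidative phosphorylation count was 1 without baseline library 3 or chronic library 2, 3 without chronic library 1 and 4 without baseline library 1, and the ribosomal count 3 without baseline library 3, 13 without chronic library 3 and 14 without baseline library 4. Cox6b1 and Rpl22 were separate between groups, but for 60 of the 61 and 53 of the 57 genes the interval lay within a 1.5-fold difference. Heat shock and unfolded protein genes (median 0.01, 0 of 30) and cholesterol genes (median 0.02, 1 lower of 25) had medians near 0, and for all 25 cholesterol genes the interval lay within 1.5-fold. Myelin genes, among the most abundant in the tissue, had a median of 0.06, with 17 of 21 above baseline, but 7 of 21 and a median of -0.04 without chronic library 1. Of the 21 only Trf was higher by the same measure (0.35 ± 0.15). Mbp, myelin basic protein, was at 5954, 6591, 5703 and 5257 CPM at baseline and at 6515, 5649 and 5224 CPM after chronic stress (-0.02 ± 0.10, adjusted p = 0.98). The small counts on the GABA-A receptor, monoamine, vesicle release, oligodendrocyte precursor and hypothalamic lists also moved when 1 library was left out, by up to 3 genes. Of 16 genes of oligodendrocyte precursors and new oligodendrocytes, Neu4 (-0.28 ± 0.13) and Cspg4 (-0.20 ± 0.09) were lower at an unadjusted p under 0.05 (3.21% of all genes). Of 22 cell cycle genes Mcm5 (0.39 ± 0.16) and Pcna (0.15 ± 0.07) were higher at an unadjusted p under 0.05. The cell cycle count, set against 2.46% of all genes, was 0 without baseline library 1, 2 or 3 or chronic library 2, and 5 without baseline library 4.

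The difference between DMSO and 4sU mice was tested itself. The chronic against baseline fold change differed between them for 6121 genes by edgeR's test of the interaction (38%). For myelin the median was 0.06 with DMSO and 0.95 with 4sU, 16 of 21 genes were called higher with 4sU, and 15 of 21 differed between the 2 sets of mice. For Mbp the values were -0.02 with DMSO and 0.95 with 4sU (interaction adjusted p = 3.0e-05). Over all genes that differed, the DMSO value was the larger in 3204 and the smaller in 2917. This balance depended on the fit: it was 3575 and 3221 with limma voom but 2995 and 3182 with DESeq2. It was also turned whenever 1 baseline or chronic DMSO library was left out, for example 2566 and 2943 without baseline library 1. Of 30 immediate early genes 10 differed, of 20 class I antigen presentation genes 9 and of 29 reactive glia genes 11, shares near that of all genes. The DMSO value was the larger for all 10, all 9 and 9 of the 11, among them C3 (1.06 with DMSO, -1.03 with 4sU, interaction adjusted p = 0.010). Tsc22d3 was called higher in 4sU mice (0.93, adjusted p = 2.8e-06) and was at -0.04 with DMSO (interaction adjusted p = 0.00032). No member of the striatal list, 0 of 20, and no choroid plexus marker, 0 of 20, differed between the 2 sets at an adjusted p under 0.05. These lists were imprecise, with median standard errors of 0.50 and 0.36 with DMSO against 0.11 over all genes, so this does not show like effects. The choroid plexus medians had opposite signs, 0.31 with DMSO and -0.32 with 4sU, and the list's mean log2 (CPM + 1) was only 2.88 in chronic 4sU library 3. In 4sU mice the chronic and baseline libraries also differ in 3′ UTR share, as given above. For the differences between the 2 sets of mice the share, the label and the stress therefore cannot be told apart.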

How the data were processed

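Exon counts per gene were deposited by the authors for 16 baseline and chronic stress libraries, with 25239 genes; a further count table held the acute stress libraries and the same 9 baseline columns. Per the submitters' processing notes, cutadapt 3.1, HISAT2 2.1.0, SAMtools 1.9 and featureCounts 2.0.1 were used. Neither the strand setting nor how multiply matching reads were counted is given in the sources used here. Per the file headers, slamdunk 0.4.3 gave reads, covered T bases, conversions and CPM for 23996 3′ UTR intervals in mm10 in the deposited files; reads and conversions were summed per library here. The cortex table was not used.

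Groups were taken from the labels. Counts were fitted with edgeR 4.0.16 (TMM scaling, filterByExpr, robust quasi-likelihood, 1 coefficient per group, 4 groups of 16 libraries sharing the spread) in R 4.3.3; chronic and acute stress were compared in a fit of all 26 amygdala libraries in 6 groups. CPM printed here were computed from the deposited counts and the TMM-scaled totals. P-values were adjusted by Benjamini-Hochberg over all genes tested. List levels are means of log2 (CPM + 1). DESeq2 1.42.0, limma 3.58.1 voom, other scaling and filters, a replicate block, 3′ UTR reads and leaving out each library were tried as alternatives.

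The genes picked for their p had a mean of at least 1 CPM over the 7 libraries. None had the symbol of a predicted gene, RIKEN clone or small RNA. They were the 12 genes with the smallest p and all chronic libraries above baseline, and the 12 below. Every gene DESeq2 called was chosen too, with fixed genes of stress, activity and cell types. Up to 4 list members with an unadjusted p under 0.05 were added, smallest p first. The floor of 1 CPM did not hold for all of these further genes, for example Pmch. The members and the 30 lists were chosen with earlier results of these data known. Of 755 list genes 729 passed the filter and were tested. A few of these genes are not reported here.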

Additional observations from a re-analysis of the deposited data

Results flagged for a closer look

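Among 126 sets of 4 baseline DMSO values, for named genes and list levels, 13 had 1 library set apart from the other 3 by Dixon's criterion. For a single set chance gives this in about 1 of 20. The 126 sets come from the same 4 libraries, and many of the genes were chosen by p-values that used them. The count of 13 therefore cannot be set against chance. The lowest library was set apart for Zbtb37 (4.73 CPM), Myo1h (1.39 CPM) and Arc (40.8 CPM). The highest library was set apart for Gng4 (73.2 CPM), Kcng1 (28.0 CPM), Cyp26b1 (74.8 CPM), Xaf1 (9.32 CPM) and H2-K1 (46.8 CPM). In mean log2 (CPM + 1), baseline library 3 was set apart for glutamatergic markers (5.51) and glutamate receptor genes (6.91), baseline library 4 for striatal markers (7.84) and interferon-stimulated genes (3.32), and baseline library 2, the lowest, for vessel markers (4.74).

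The chronic stress effect differed between DMSO and 4sU mice in 6121 genes by edgeR's interaction test. The values below are the DMSO log2 fold change minus the 4sU one, for named genes with an adjusted p under 0.05. Among genes named for their p in DMSO mice the difference was 1.35 for H2-Q4, -0.33 for Vamp1, 0.30 for Rpl28, 0.43 for Homez, 0.49 for Frmpd1, 0.30 for Vstm2b, 0.70 for Pdzrn3, 0.65 for Kcng1, 0.77 for Tmem132a and 0.60 for Adgrb1. For the glucocorticoid target Tsc22d3 it was -0.97, for the receptor Nr3c1 -0.55 and for the clock repressor Nr1d1 0.90.

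Among neuronal genes the difference was 0.84 for Egr4, 1.23 for Atf3, 0.80 for Cckbr, -1.34 for Pvalb, -0.33 for Gabra3, 0.58 for Grin1, 0.64 for Nrxn2 and -1.67 for Lhx1. Among glial and vessel genes it was -0.97 for Mbp, 0.39 for Cspg4, -0.88 for Neu4, 0.34 for Cx3cr1, 2.09 for C3, 1.93 for Lgals3 and -0.80 for Spp1. Among immune genes it was 0.59 for Ifi27, 2.06 for Bst2, 0.84 for Ifitm3, 0.79 for H2-K1 and 1.25 for Tap2. Among metabolic and cell cycle genes it was -0.30 for Cox6b1, 0.26 for Sdhd, -0.57 for Uqcrb, 0.37 for Cox4i1 and 1.71 for Mcm5. Among others C3, Lgals3, H2-Q4, H2-K1, Tap2, Bst2, Ifitm3, Homez and Mcm5 had a positive log2 fold change with DMSO and a negative one with 4sU, while Pvalb and Vamp1 had the same sign and a larger value with 4sU.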

How the results depend on the processing

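The number of genes called, 0, was 11 with DESeq2, 2 with limma voom and 0 to 1 when 1 library was left out (Kcns3 without baseline library 3, Grm2 without chronic library 3); it was 0 under the other edgeR settings. The 913 genes at an unadjusted p under 0.05 became 413 in the fit of all amygdala libraries and 1854 with limma voom. The 291 genes that differed between chronic and acute stress became 559 with DESeq2 and 45 (without chronic library 3) to 638 (without acute library 2) when 1 library was left out; without chronic library 2 there were 75. The deviations of same-numbered baseline and chronic libraries correlated at -0.14, -0.30 and 0.36, without a common sign. Differently numbered libraries ranged from -0.52 to 0.43, so these values cannot tell whether the numbers pair libraries. With the replicate block 0 genes were called, 852 had an unadjusted p under 0.05, 5571 differed between DMSO and 4sU mice and 233 between chronic and acute stress.

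Of 1569 values of 93 named genes under the alternatives, 1521 kept their direction and side of the threshold, 15 passed the threshold in addition and 33 turned sign, in 12 genes. With 3′ UTR reads the sign turned for Myo1h (0.15), Fos (-0.091), Npas4 (-0.0084), Uqcrb (-0.37) and Cox4i1 (-0.029). With limma voom it turned for Npas4 (-0.12) and Fkbp5 (0.15), and with the replicate block for Fkbp5 (0.030), Tsc22d3 (0.021) and Slc17a7 (-0.068). With chronic library 1 and baseline library 4 left out, a setting added after the data were seen, it turned for Npas4 (-0.18), Fkbp5 (0.24) and Tsc22d3 (0.037). When 1 library was left out the log2 fold change ran from -0.10 to 0.24 for Fos, -0.085 to 0.21 for Arc, -0.26 to 0.21 for Npas4, -0.23 to 0.16 for Fkbp5, -0.14 to 0.67 for Sgk1, -0.11 to 0.061 for Tsc22d3, -0.46 to 0.068 for Crh, -0.37 to 0.64 for Slc17a7 and -0.11 to 0.056 for Mbp. The cause was not tested. Of 509 list medians under the alternatives 23 moved by more than the spread between replicates, in 10 of 30 lists.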
